A study of Saccharomyces cerevisiae with 24 samples.

Results

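Genes that budding yeast normally keeps silent during growth and turns on for meiosis and spore formation were read in growing haploid cells. The set held 43 genes, taken by name from the table of read counts for 6692 ORFs: 8 regulators, 8 genes of meiotic chromosomes and recombination, 13 of the prospore membrane and meiotic plaque, 11 of the spore wall and 3 sporulation genes of unassigned role. RNA was sequenced from H3L126M, H3L126H and WT cells. The parent of all 3 is BY4741, so every library comes from MATa haploids of S288C descent with the markers *his3Δ1 leu2Δ0 met15Δ0 ura3Δ0* and with *HHT2* deleted and then restored at its own locus. In the mutants leucine 126 of histone H3 is replaced, by methionine or by histidine, in both chromosomal H3 genes, *HHT1* and *HHT2*, and each genotype is represented by 1 strain. Cells were taken after a few doublings in YPEG (ethanol and glycerol, oxidative growth) or YPD (glucose, fermentative growth), with 4 replicate experiments per strain and medium.

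In yeast, starvation of a diploid cell leads to expression of Ime1, a transcription factor that starts the meiotic program together with the kinase Ime2. Early genes, which carry a URS1 site bound by Ume6, serve recombination and chromosome pairing. Middle genes, which carry the middle sporulation element (MSE), are turned on by Ndt80 and are held silent in growing cells by Sum1 at many of these sites. Their products build the prospore membrane around each haploid nucleus and then the spore wall of glucan, chitosan and dityrosine.

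Assigned counts ranged from 8570789 to 15577958 per library, and replicate libraries correlated at 0.974 to 0.994 (Pearson's r over genes). The labelled cell type was checked against mating genes: all 7 a-specific genes were expressed, and *HMRA1*, the a1 gene as annotated at the silent cassette, had 39.4 to 115 CPM. In WT in YPD a-specific genes averaged 12.7 (*ASG7*) to 558 CPM (*STE2*), and alpha-specific genes 0.19 (*MF(ALPHA)1*) to 27.0 CPM (*SAG1*). In WT in YPEG *ASG7* had 3.78 CPM and *SAG1* 29.3 CPM, so the sets overlapped and are only a partial check. Genes of chromosomes II, III, V and XVI were higher as a whole in H3L126H than in WT, with medians of 0.21 to 0.43 (log2) in YPD, and 8 of the 43 genes lie there (*GIP1*, *SPS22*, *DMC1*, *SPO73*, *SPR6*, *REC8*, *SMK1* and *MEI5*). Values for those genes in H3L126H are therefore also given after removal of the chromosome medians where this mattered.

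The 43 genes were near the bottom of the expression range. Per kilobase of coding sequence in WT cells, their median percentile was 10.6 in YPEG and 9.49 in YPD among 6007 ORFs, and in YPD 42 lay below the median ORF. Their sequences are distinct: every 50-bp window of all 43 genes is unique in the genome, none overlaps another gene on its own strand, and they are spread over 13 chromosomes. *SPS100* alone overlaps an annotated RNA on the opposite strand. Reads were aligned by strand, but the strand setting of the counting is not given in the sources used here, so its values may hold reads of both.

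The upstream regions of 6 genes that rose in both mutants in the same medium are shown, since the members that moved most can be read there against the sites of the known repressors. Each sequence runs from 250 bases before the start codon through the first 50 bases of the ORF, 5′ to 3′ on the gene's strand, read from the RefSeq copy of the R64 assembly (sacCer3). The positions are chrXII:745370-745669, plus strand for *CDA1*; chrXV:807021-807320, plus strand for *OSW1*; chrIV:905003-905302, minus strand for *SPR28*; chrXII:747687-747986, plus strand for *CDA2*; chrIV:1274352-1274651, plus strand for *DIT1* and chrIII:41915-42214, plus strand for *SPS22*. Capitals mark MSE core words, which are CACAAA or CGCAAA followed by 1 further A or T, on either strand.
CDA1: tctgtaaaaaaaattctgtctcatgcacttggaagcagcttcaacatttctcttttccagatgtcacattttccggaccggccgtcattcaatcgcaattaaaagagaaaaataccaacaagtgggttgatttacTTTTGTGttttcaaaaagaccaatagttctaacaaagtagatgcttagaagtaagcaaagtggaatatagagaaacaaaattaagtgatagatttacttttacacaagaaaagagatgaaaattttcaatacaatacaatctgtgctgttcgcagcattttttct
OSW1: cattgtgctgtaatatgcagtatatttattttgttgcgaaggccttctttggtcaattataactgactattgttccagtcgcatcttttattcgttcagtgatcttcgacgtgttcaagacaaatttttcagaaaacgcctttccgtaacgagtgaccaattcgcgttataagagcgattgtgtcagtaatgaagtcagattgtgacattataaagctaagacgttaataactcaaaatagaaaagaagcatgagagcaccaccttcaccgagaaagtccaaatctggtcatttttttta
SPR28: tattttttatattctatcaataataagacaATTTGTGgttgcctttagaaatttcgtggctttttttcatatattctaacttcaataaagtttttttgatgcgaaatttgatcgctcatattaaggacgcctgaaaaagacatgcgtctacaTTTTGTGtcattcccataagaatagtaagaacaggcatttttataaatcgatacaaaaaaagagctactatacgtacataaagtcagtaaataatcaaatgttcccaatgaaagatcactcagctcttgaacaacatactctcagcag
CDA2: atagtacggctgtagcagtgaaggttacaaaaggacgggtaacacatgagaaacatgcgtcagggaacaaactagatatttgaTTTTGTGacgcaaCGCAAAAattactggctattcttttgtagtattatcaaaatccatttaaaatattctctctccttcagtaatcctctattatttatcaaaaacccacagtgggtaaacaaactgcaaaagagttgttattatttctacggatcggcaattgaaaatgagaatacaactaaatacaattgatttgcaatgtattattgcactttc
DIT1: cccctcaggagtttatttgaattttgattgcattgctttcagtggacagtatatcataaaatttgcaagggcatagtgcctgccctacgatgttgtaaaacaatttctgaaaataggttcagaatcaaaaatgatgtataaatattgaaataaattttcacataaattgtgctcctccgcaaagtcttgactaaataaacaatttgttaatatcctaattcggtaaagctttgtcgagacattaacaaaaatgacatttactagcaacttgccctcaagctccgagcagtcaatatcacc
SPS22: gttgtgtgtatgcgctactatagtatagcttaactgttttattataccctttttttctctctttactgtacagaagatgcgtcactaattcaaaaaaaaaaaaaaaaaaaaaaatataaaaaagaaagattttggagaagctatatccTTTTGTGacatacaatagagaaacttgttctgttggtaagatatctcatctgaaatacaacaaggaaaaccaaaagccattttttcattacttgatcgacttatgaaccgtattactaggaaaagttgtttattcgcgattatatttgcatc

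*CDA1* and *SPS22* had 1 MSE core word each, 115 and 102 bases before the start codon, and *SPR28* and *CDA2* had 2 each. *OSW1* and *DIT1* held none of these words in the window. Of the 43 genes, 24 (55.8%) had an MSE core word in the window, against 19.6% of 6007 promoters, and 10 (23.3%) had the URS1 core GGCGGC, searched on both strands, against 5.14%. Both motifs stood in 4 of the 43 windows and in 60 of all promoters. In H3L126M in YPD, 13 of 23 tested genes with an MSE core word and 7 of 19 without were higher than in WT, against 7.83% of all genes. In H3L126H in YPD these counts were 11 of 23 and 7 of 19, against 24.5% of all genes. In YPEG the counts were 10 of 24 and 11 of 18 in H3L126M, against 17.1% of all genes. In H3L126H in YPEG they were 7 of 24 and 7 of 18, against 18.7%. A match of letters is a description of the window only.

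To ask whether the program was silent in the same measure in the 3 strains, the counts of all 43 genes were summed per library and scaled with TMM (CPM, counts in proportion to the effective library size). In YPD the sum was 520, 531, 540 and 533 CPM in H3L126M, 460, 486, 494 and 492 CPM in H3L126H, and 388, 391, 391 and 380 CPM in WT. Every library of each mutant lay above every WT library, and the means were 1.37 and 1.25 times that of WT in H3L126M and H3L126H. In YPEG the sum was 915, 905, 855 and 800.0 CPM in H3L126M, 808, 745, 709 and 774 CPM in H3L126H, and 655, 642, 617 and 678 CPM in WT. Again no mutant library overlapped WT, with ratios of 1.34 and 1.17. The sum was higher in YPEG than in YPD in all 3 strains, by 1.64 times in H3L126M, 1.57 times in H3L126H and 1.67 times in WT. In H3L126M the sum was 1.10 times that of H3L126H in YPD, with no overlap of libraries. In YPEG it was 1.14 times that of H3L126H, the libraries overlapped, and scaling to total counts lowered the log2 ratio to 0.05 (0.19 with TMM). Scaling to total counts instead of TMM shifted every gene by 0.16 and 0.14 (log2) in H3L126M and H3L126H against WT in YPD and by 0.36 for YPEG against YPD in WT, and all changes here are relative to TMM.

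**Figure D1:**
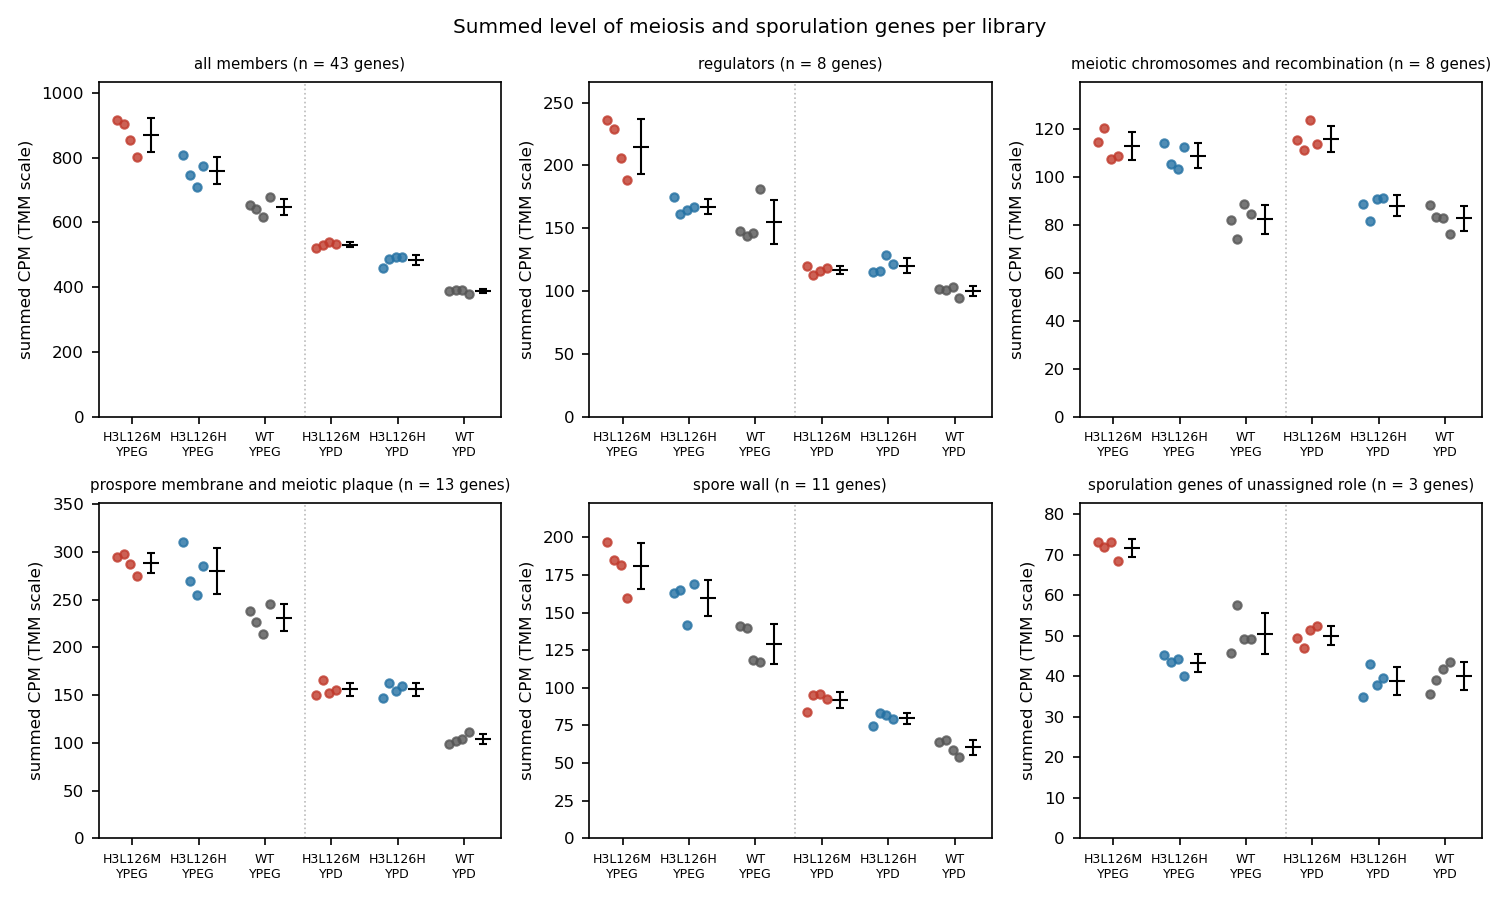
Summed CPM of the 43 genes and of each role class per library (points: 4 libraries per strain and medium; line and bar: mean ± SD; vertical axis: summed CPM on the TMM scale, from 0). In YPD the H3L126M and H3L126H libraries lie between 460 and 540 CPM for all members, above the WT libraries at 380 to 391 CPM.

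The sum was not carried by 1 gene. *SPO75*, a gene needed for spore formation, held the largest mean share with 6.98%, followed by *RIM4*, an RNA-binding translational repressor of meiotic mRNAs, with 6.75%. *SPR6* (4.80%), *NDT80* (4.79%) and *GIP1* (4.63%) came next. By role, the prospore membrane genes summed to 156 ± 6.57 CPM in H3L126M, 156 ± 6.72 CPM in H3L126H and 104 ± 5.49 CPM in WT in YPD (SD, n = 4 each), a ratio of 1.5 in both mutants. The spore wall genes had ratios of 1.52 in H3L126M and 1.32 in H3L126H, and the regulators 1.17 and 1.2. The genes of meiotic chromosomes parted the mutants in YPD: they summed to 116 ± 5.41 CPM in H3L126M, 88.0 ± 4.49 CPM in H3L126H and 82.7 ± 5.02 CPM in WT, so that H3L126M stood at 1.40 times WT with no overlap and H3L126H at 1.06 times with overlap. In YPEG both mutants were above WT for this class, with ratios of 1.37 and 1.32.

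Gene by gene, 42 of the 43 genes had enough counts to be tested in YPD. *MEI5*, *OSW1*, *CDA1*, *SPR28* and *DIT2* passed the count filter there only through mutant libraries. *CDA1* and *SPR28* in both mutants, *MEI5* and *DIT2* in H3L126M and *OSW1* in H3L126H are among the 2-fold rises below. In H3L126M, 20 rose and 1 fell against WT (edgeR quasi-likelihood test, Benjamini-Hochberg adjusted p below 0.05 over 5976 genes), against a background of all genes tested of 7.83% that rose, 6.74% that fell and 14.6% called in either direction. The median log2 fold change of the 42 was 0.52, and that of all genes tested was 0.01. At least 2-fold rises numbered 11, against 2.09% of all genes. In H3L126H, 18 rose and 2 fell, against a background of 24.5% that rose, 20.1% that fell and 44.6% called. The median was again 0.52, and 9 rose at least 2-fold, against 3.85% of all genes. The 2 mutants share the WT libraries. Their risen genes had 14 in common, which was 14 of the 20 of H3L126M and 14 of the 18 of H3L126H. The overlap over all genes is not given, so this count is a description only.

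Since the members are low, they were also set beside the other genes of the lowest of 5 equal bins of mean level, a description chosen after the values were seen. In H3L126M in YPD, 18 of 36 members in this bin rose, against 15.6% of the 1160 other genes, with medians of 0.56 and 0.18. In H3L126H in YPD, 17 of 36 rose, against 28.1% of the other genes, with medians of 0.72 and 0.22. In YPEG, 15 of 33 rose in H3L126M against 21.0% of 1172 other genes, and 13 of 33 rose in H3L126H against 22.3%.

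In YPEG, where 42 genes were tested over 6022 in all, 21 rose and 1 fell in H3L126M, against a background of 17.1% that rose, 19% that fell and 36.2% called. The median was 0.46, and 5 rose at least 2-fold against 3.04% of all genes. In H3L126H, 14 rose and 2 fell, against a background of 18.7% that rose, 17.7% that fell and 36.4% called, with a median of 0.30. There 3 rose at least 2-fold, against 2.39% of all genes. *OSW1* and *CDA2*, at least 2-fold higher in both mutants in YPEG, passed the count filter only through mutant libraries. Over the 4 comparisons with WT, 31 genes rose in at least 1, and *CDA1*, *GIP1*, *MPC54* and *SPS22* rose in all 4. With chromosome medians removed, *GIP1* was no longer called in H3L126H in YPEG (0.30). The share of all genes that rose in at least 1 or in all 4 is not given, so these counts are a description. The 10 genes called in none were *CRR1*, *OSW2*, *SPO13*, *SPO20*, *SPO73*, *SPO74*, *SPS1*, *SPS18*, *SPS2* and *SSP1*. With only the 8 libraries of a comparison in the fit, H3L126M counts came to 14 called in YPD (21 with all 12 libraries) and 17 in YPEG (22 with all 12).

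**Figure D2:**
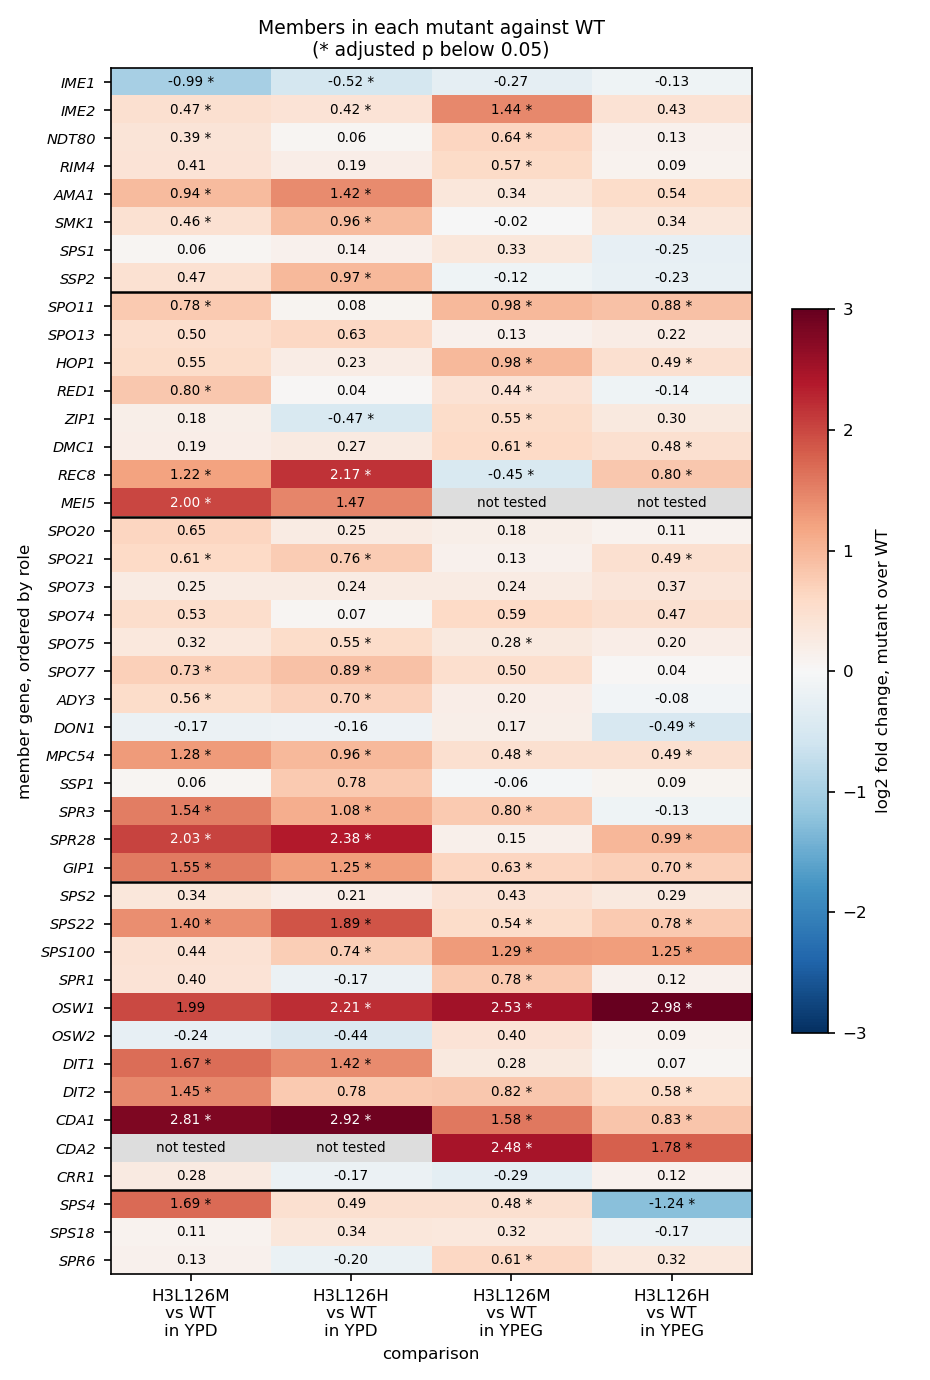
Log2 fold change of each of the 43 genes in each mutant over WT, by medium (rows: genes in order of role, with lines between the regulators, meiotic chromosomes, prospore membrane, spore wall and unassigned genes; color: log2 fold change; asterisk: adjusted p below 0.05; gray: too few counts). In YPD 20 genes carry an asterisk for a rise in H3L126M and 18 in H3L126H, and *IME1* falls in both.

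Among the spore wall genes *CDA1* (YLR307W), a chitin deacetylase that makes the chitosan layer, had the largest called rise in YPD. It had 10.4, 7.76, 8.03 and 9.36 CPM in H3L126M, 7.48, 11.3, 9.58 and 9.48 CPM in H3L126H, and 0.969, 1.92, 0.957 and 1.29 CPM in WT in YPD. No library of either mutant came near WT. The WT libraries held 10 to 19 counts there, and *CDA1* passed the count filter in YPD only through the mutant libraries. Its YPD calls are therefore no independent support for a rise. The rise was 7.01-fold in H3L126M (log2 2.81, SE 0.23, edgeR adjusted p = 3.01e-06) and 7.55-fold in H3L126H (log2 2.92, SE 0.23, adjusted p = 1.2e-06). In YPEG *CDA1* had 33.2, 29.3, 29.1 and 29.7 CPM in H3L126M, 19.1, 16.5, 17.8 and 19.2 CPM in H3L126H, and 12.7, 10.4, 8.67 and 9.16 CPM in WT. The 3 strains did not overlap, at log2 1.58 in H3L126M and 0.83 in H3L126H, and H3L126M exceeded H3L126H by 0.75.

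Its neighbor and paralog *CDA2* (YLR308W) was not tested in YPD, where it had 2 to 10 counts per library. In YPEG it had 3.61, 3.96, 6.02 and 3.32 CPM in H3L126M, 4.17, 2.19, 1.53 and 2.67 CPM in H3L126H, and 0.420, 1.79, 0.562 and 0.370 CPM in WT. H3L126M stood clear of WT, and the lowest H3L126H library lay below the highest WT library. The log2 changes were 2.48 (SE 0.45, edgeR adjusted p = 0.000804) and 1.78 (SE 0.46, adjusted p = 0.00794).

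*OSW1* (YOR255W), needed for the outer spore wall, was close to the limit of counting in WT cells. In YPEG it had 3.81, 1.48, 2.39 and 2.04 CPM in H3L126M, 2.82, 3.48, 2.84 and 4.18 CPM in H3L126H, and 0.210, 0.560, 0.0803 and 0.833 CPM in WT. No library overlapped, and the 1 to 9 counts of the WT libraries make the size of the rise imprecise: log2 2.53 in H3L126M (SE 0.48, edgeR adjusted p = 0.00117) and 2.98 in H3L126H (SE 0.46, adjusted p = 0.000312). In YPD WT had 0 to 8 counts, and the rise was called in H3L126H (log2 2.21, SE 0.66, adjusted p = 0.0152) and missed the threshold in H3L126M (1.99, SE 0.66, adjusted p = 0.0598). In both media *OSW1* passed the count filter only through the mutant libraries, so its calls are no independent support for a rise.

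*DIT1* (YDR403W) and its divergent neighbor *DIT2* (YDR402C) make the dityrosine of the outer layer. In YPD *DIT1* had 14.0, 16.8, 18.3 and 16 CPM in H3L126M, 14.2, 12.3, 14.6 and 12.6 CPM in H3L126H, and 7.08, 5.36, 4.97 and 3.32 CPM in WT. Both mutants lay above WT without overlap, at log2 1.67 (SE 0.19, edgeR adjusted p = 4.22e-05) and 1.42 (SE 0.19, adjusted p = 7.18e-05). In YPEG the strains averaged 21.9 ± 2.90, 19.0 ± 1.76 and 18.2 ± 2.11 CPM in H3L126M, H3L126H and WT (SD, n = 4 each), and neither difference passed the test. *DIT2* rose in H3L126M in both media, at 1.45 in YPD and 0.82 in YPEG, and in H3L126H in YPEG at 0.58 (edgeR adjusted p = 0.0436). That last call was lost without any 1 H3L126H library or without WT replicate 1 or 4 (0.42 to 0.63). In YPD *DIT2* had 8 to 24 counts in WT and passed the count filter only through the mutant libraries.

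*SPS22* (YCL048W), a cell surface protein of the glucan layer, had 3.90, 3.21, 6.46 and 4.76 CPM in H3L126M, 7.2, 6.81, 4.84 and 6.55 CPM in H3L126H, and 2.42, 1.62, 1.53 and 1.48 CPM in WT in YPD. All mutant libraries exceeded all WT libraries, at log2 1.40 and 1.89, and 1.68 in H3L126H with chromosome medians removed. In YPEG the rises were 0.54 and 0.78, the H3L126H value being 0.51 with chromosome medians removed. The YPEG call in H3L126M was lost without H3L126M replicate 1 (0.52) or 3 (0.46) or WT replicate 4 (0.43). *SPS100*, which protects the maturing spore wall, had 6.44, 6.84, 5.49 and 6.56 CPM in H3L126M, 6.64, 5.67, 4.54 and 8.15 CPM in H3L126H, and 3.26, 2.91, 1.2 and 3.24 CPM in WT in YPEG. Both mutants exceeded WT in every library, at 1.29 and 1.25, within the limit on strand given above.

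Of the 13 genes of the prospore membrane and plaque, 7 rose in H3L126M and 8 in H3L126H in YPD, and none fell, where 7.83% and 24.5% of all genes rose. In YPEG 4 rose in each mutant, where 17.1% and 18.7% of all genes rose, and 1, *DON1* of the leading edge coat, fell in H3L126H (-0.49, -0.34 and no longer called with chromosome medians removed). *SPR28* (YDR218C), a septin made only in sporulation, had 6.41, 5.59, 3.93 and 5.60 CPM in H3L126M, 5.95, 7.81, 7.37 and 5.85 CPM in H3L126H, and 2.33, 0.708, 1.34 and 0.923 CPM in WT in YPD. The groups were apart, at log2 2.03 (SE 0.30, edgeR adjusted p = 0.000378) and 2.38 (SE 0.29, adjusted p = 4.04e-05). These calls are no independent support for a rise. *SPR28* held 7 to 24 counts in WT there and passed the count filter only through the mutant libraries. In YPEG it had 13.0, 16.6, 13.1 and 11.1 CPM in H3L126M, 28.1, 23.3, 21.8 and 24 CPM in H3L126H, and 15, 11.1, 11.4 and 11.4 CPM in WT. There H3L126M overlapped WT (0.15, adjusted p = 0.455) while H3L126H lay above both, at 0.99 against WT.

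The other sporulation septin gene, *SPR3* (YGR059W), rose in both mutants in YPD, at 1.54 and 1.08, and in YPEG in H3L126M (0.80) with -0.13 in H3L126H. *GIP1* (YBR045C), which directs the phosphatase Glc7 to the septins, had 18.5, 26.0, 19.8 and 18.0 CPM in H3L126M, 15.3, 16.5, 14.7 and 19.1 CPM in H3L126H, and 7.17, 6.37, 6.70 and 8.13 CPM in WT in YPD. No mutant library overlapped WT. The rise was 2.94-fold in H3L126M (edgeR adjusted p = 9.29e-06) and 2.39-fold in H3L126H (adjusted p = 2.82e-05). *GIP1* lies on chromosome II, and with chromosome medians removed its log2 change in H3L126H was 0.83 in YPD (1.25 before) and 0.30 in YPEG (0.70 before), where it was no longer called. *MPC54*, a subunit of the meiotic outer plaque, rose by 1.28 and 0.96 in YPD and 0.48 and 0.49 in YPEG. Both YPEG calls were lost without single libraries: H3L126M replicate 1 or 2 or WT replicate 1 or 3 for H3L126M (0.29 to 0.46), and H3L126H replicate 1, 3 or 4 or WT replicate 1 or 3 for H3L126H (0.42 to 0.49).

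*SSP1* (YHR184W), a leading edge coat protein, was called in no comparison with WT, and its libraries in YPD spread from 3.34 to 7.45 CPM in H3L126M and from 2.33 to 7.11 CPM in WT. *SPO75* had 31.8, 38.8, 27.4 and 33.9 CPM in H3L126M, 39.2, 37.3, 39.6 and 36.1 CPM in H3L126H, and 27.2, 26.4, 23.2 and 30.5 CPM in WT in YPD. H3L126M overlapped WT and H3L126H did not, and of the 2 changes the 0.55 of H3L126H passed the test there. In YPEG its 0.28 in H3L126M passed (edgeR adjusted p = 0.0458) and was lost without any 1 H3L126M library or without WT replicate 2 or 3 (0.23 to 0.29).

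**Figure D3:**
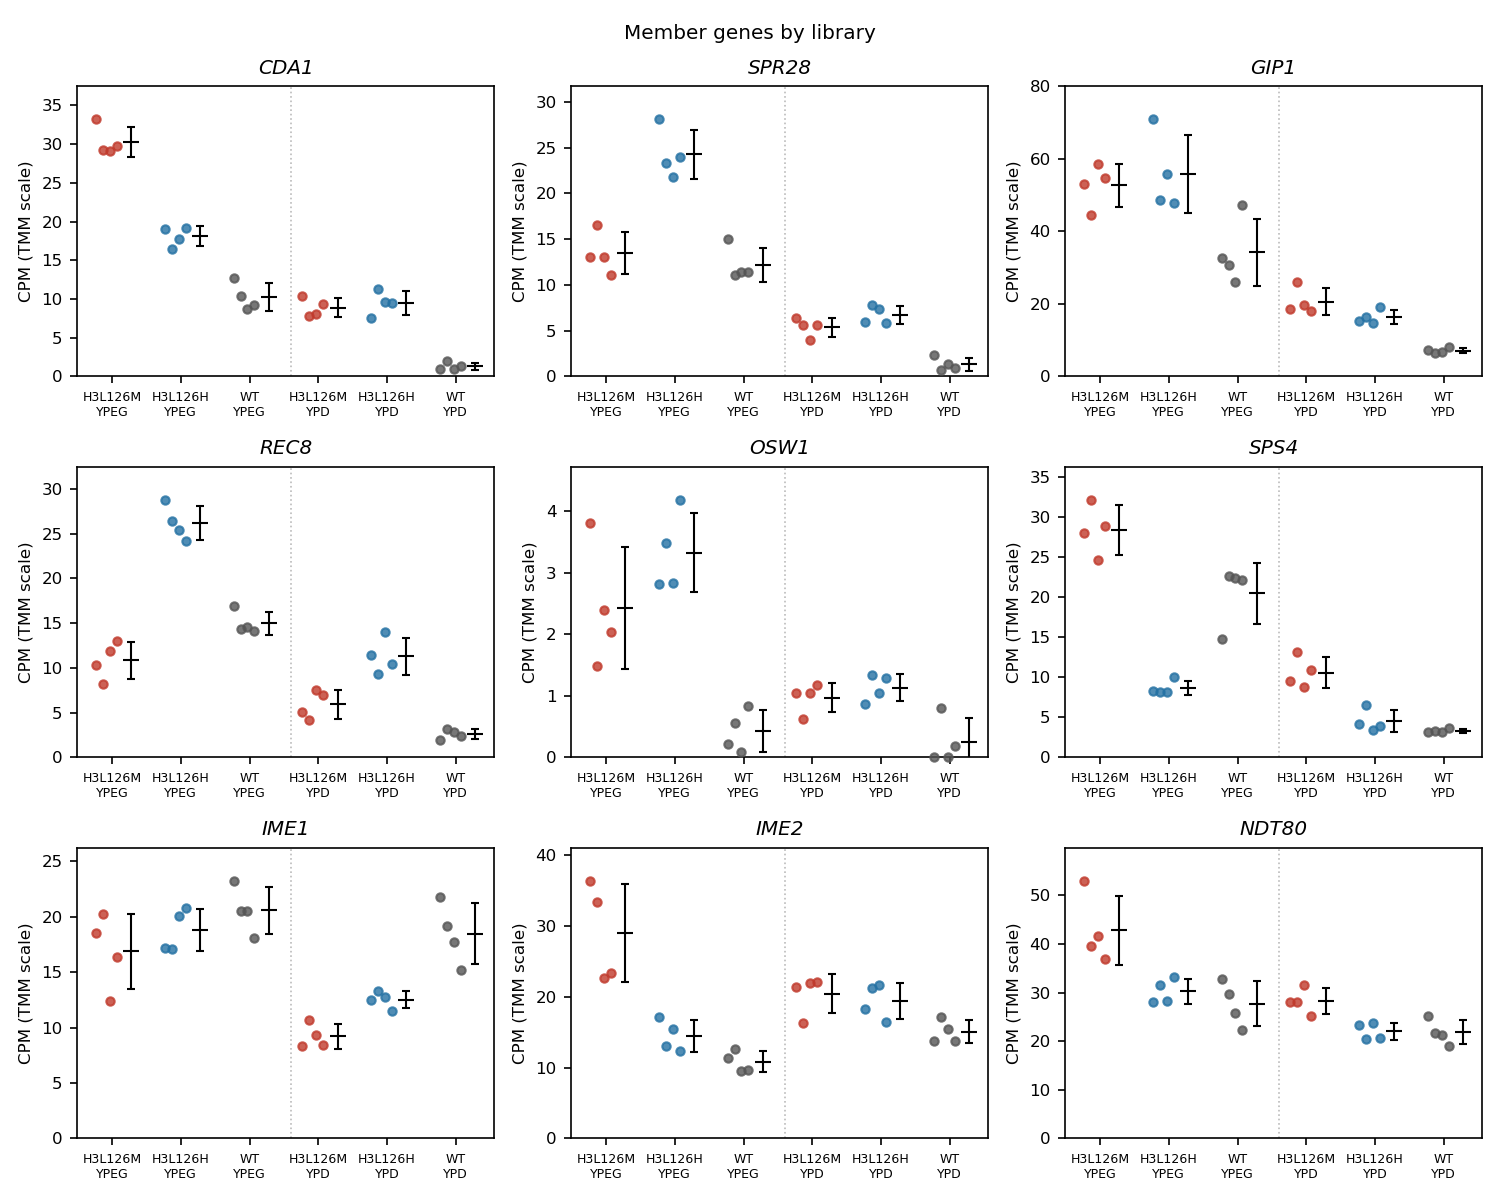
CPM of 9 members in each library (points: 4 libraries per strain and medium; line and bar: mean ± SD; vertical axis: CPM on the TMM scale, from 0). *CDA1*, *SPR28*, *GIP1* and *REC8* lie above WT in both mutants in YPD, *IME1* lies below it, and *SPS4* in YPEG is highest in H3L126M and lowest in H3L126H.

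Among the chromosome genes, *REC8* (YPR007C) encodes the meiotic cohesin subunit. In YPD it had 5.02, 4.14, 7.51 and 6.94 CPM in H3L126M, 11.4, 9.27, 14.0 and 10.4 CPM in H3L126H, and 1.94, 3.13, 2.87 and 2.40 CPM in WT. The 3 strains did not overlap, at log2 1.22 (edgeR adjusted p = 0.00314) and 2.17 (adjusted p = 1.17e-05) over WT. In YPEG it had 10.3, 8.24, 11.9 and 13.0 CPM in H3L126M, 28.7, 26.4, 25.4 and 24.2 CPM in H3L126H, and 16.9, 14.3, 14.6 and 14.1 CPM in WT. H3L126M was now lowest (-0.45, adjusted p = 0.0248) and H3L126H highest (0.80), and H3L126M lay 1.25 below H3L126H on the log2 scale. The fall in H3L126M was no longer called without H3L126M replicate 1 (-0.42) or 2 (-0.34) or WT replicate 1 (-0.39), nor with only the 8 libraries (-0.45). *REC8* lies on chromosome XVI, and with chromosome medians removed the H3L126H values were 1.75 in YPD and 0.43 in YPEG, both still called.

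*ZIP1* of the synaptonemal complex rose in H3L126M in YPEG and fell in H3L126H in YPD (-0.47, and -0.31 and no longer called with chromosome medians removed). The rise was lost without H3L126M replicate 1, 2 or 4 or WT replicate 1, 2 or 4 (0.40 to 0.56), and the fall without H3L126H replicate 2 or 3 or WT replicate 1 or 2 (-0.45 to -0.39). *SPO13*, a meiosis I regulator, was called in neither mutant. *DMC1*, a recombinase gene on chromosome V, rose in both mutants in YPEG. In H3L126H it had 0.48 there, and 0.28 and no call with chromosome medians removed.

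*SPO11* (YHL022C), the nuclease that makes the meiotic double strand breaks, had 8.01, 4.51, 9.82 and 5.58 CPM in H3L126M, 6.35, 6.23, 5.23 and 8.43 CPM in H3L126H, and 3.36, 1.79, 4.42 and 4.35 CPM in WT in YPEG. All mutant libraries were above all WT libraries, at log2 0.98 (SE 0.30, edgeR adjusted p = 0.0183) and 0.88 (SE 0.29, adjusted p = 0.0285). The call was lost without H3L126M replicate 1 (0.91) or 3 (0.77), and in H3L126H without its replicate 1 (0.90) or 4 (0.74) or WT replicate 1 (0.86) or 2 (0.68). *HOP1* of the chromosome axis rose in YPEG by 0.98 and 0.49, with the call in H3L126H lost without WT replicate 3 (0.41). *RED1*, also of the axis, rose in H3L126M in both media, at 0.80 in YPD and 0.44 in YPEG. In YPEG that call was lost without H3L126M replicate 2 or 3 or WT replicate 2 or 4 (0.36 to 0.42). *MEI5*, a partner of the recombinase Dmc1, had 0.606, 1.86, 1.05 and 2.34 CPM in H3L126M, 0.767, 0.223, 1.68 and 1.29 CPM in H3L126H, and 0.194, 0.202, 0.574 and 0.462 CPM in WT in YPD. H3L126M lay above WT without overlap (log2 2.00, SE 0.59, edgeR adjusted p = 0.0377) on 7 to 28 counts per library, against 2 to 6 in WT. That call was lost without H3L126M replicate 2 (1.88) or 4 (1.65) or WT replicate 1 (1.81) or 2 (1.83).

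The regulators at the head of the program moved in both directions. *IME1* (YJR094C) fell in both mutants in YPD, with 8.32, 10.7, 9.34 and 8.44 CPM in H3L126M, 12.5, 13.3, 12.8 and 11.5 CPM in H3L126H, and 21.8, 19.2, 17.7 and 15.2 CPM in WT. No libraries overlapped, and the log2 changes were -0.99 (SE 0.14, edgeR adjusted p = 0.000222) and -0.52 (SE 0.13, adjusted p = 0.00681). In YPEG neither difference passed the test (-0.27 and -0.13).

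*IME2* (YJL106W), the kinase downstream, had 36.3, 33.4, 22.7 and 23.4 CPM in H3L126M, 17.2, 13.0, 15.5 and 12.3 CPM in H3L126H, and 11.4, 12.6, 9.56 and 9.63 CPM in WT in YPEG. H3L126M lay above both other strains without overlap, at 2.72-fold over WT (log2 1.44, SE 0.18, edgeR adjusted p = 4.45e-05), and H3L126H had 0.43 (adjusted p = 0.0696). In YPD the changes were 0.47 and 0.42, both called. The H3L126M call was lost without replicates 1, 3 or 4 of either strain (0.42 to 0.48), and the H3L126H call without H3L126H replicate 2 (0.37) or 3 (0.36) or WT replicate 1 (0.38) or 4 (0.37) and with chromosome medians removed (0.36). *NDT80* (YHR124W), the activator of the middle genes, averaged 28.3 ± 2.61 CPM in H3L126M, 22.1 ± 1.73 CPM in H3L126H and 21.8 ± 2.48 CPM in WT in YPD (SD, n = 4 each). It was called in H3L126M in YPD (0.39, edgeR adjusted p = 0.0276) and in YPEG (0.64, adjusted p = 0.00213), and had 0.06 and 0.13 in H3L126H. The YPD call was lost without H3L126M replicate 1, 2 or 3 or WT replicate 2, 3 or 4 (0.33 to 0.40). *RIM4* had 89, 95.6, 84.2 and 67.8 CPM in H3L126M, 65, 55.3, 64.8 and 58.8 CPM in H3L126H, and 41.6, 43.3, 54.1 and 88 CPM in WT in YPEG, with WT replicate 4 far above the other WT libraries. Its 0.57 in H3L126M was called, and the call was lost without H3L126M replicate 1, 2 or 3 or WT replicate 1, 2 or 3 (0.45 to 0.57). *SMK1*, a kinase of spore wall assembly, rose by 0.46 and 0.96 in YPD, the H3L126H value being 0.54, still called, with chromosome medians removed. The call in H3L126M was lost without H3L126M replicate 1 or 2 or WT replicate 2 or 3 (0.39 to 0.46). *SPS1* was called in neither mutant. *AMA1*, the meiotic activator of the anaphase-promoting complex, rose by 0.94 and 1.42 in YPD, and the call in H3L126M was lost without H3L126M replicate 2, 3 or 4 or WT replicate 2 or 3 (0.82 to 0.93).

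Of the 3 genes of unassigned role, *SPS4* moved in opposite directions in the 2 mutants in YPEG. *SPS4* (YOR313C) had 28, 32.1, 24.6 and 28.9 CPM in H3L126M, 8.33, 8.18, 8.18 and 10 CPM in H3L126H, and 14.8, 22.6, 22.4 and 22.1 CPM in WT in YPEG. H3L126M rose (log2 0.48, edgeR adjusted p = 0.0172, lost without H3L126M replicate 2 at 0.41) and H3L126H fell (-1.24, SE 0.15, adjusted p = 6.55e-05), so that they stood 1.73 apart. In YPD it had 9.53, 13.1, 8.82 and 10.9 CPM in H3L126M, 4.22, 6.59, 3.47 and 3.86 CPM in H3L126H, and 3.20, 3.23, 3.16 and 3.69 CPM in WT. Here H3L126M stood above both, at 1.69 over WT (adjusted p = 8.07e-05), and H3L126H had 0.49 (adjusted p = 0.0857). *SPR6* had 37.4, 26.6, 38.2 and 33.1 CPM in H3L126M, 31.8, 26.9, 28.2 and 24.3 CPM in H3L126H, and 26, 26.2, 18.5 and 18.8 CPM in WT in YPEG. It rose there in H3L126M (0.61) and had 0.32 in H3L126H, without passing the test. In H3L126H in YPD its -0.20 was called only with chromosome medians removed (-0.42). *SPS18* was called in neither mutant in either medium.

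Set directly against each other, H3L126M and H3L126H differed in 11 members in YPD, 8 higher and 3 lower in H3L126M, against 16.2% and 19.4% of all genes and 35.7% called in all. In YPEG 13 differed, 9 higher and 4 lower, against 19.4% and 21.2% and 40.6% called in all. No gene of the prospore membrane class was called between the mutants in YPD.

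The second axis of the study was the medium. In WT, 25 of the 43 genes were higher in YPEG than in YPD and 6 were lower, against 34.3% and 33.2% of all genes and 67.4% called in all, with a median of 0.74 where that of all genes was 0.02. At least 2-fold rises numbered 16, against 13% of all genes. Of the prospore membrane class 11 of 13 rose and 1 fell, of the spore wall class 7 of 11 rose and 1 fell, and of the chromosome class 2 of 8 rose and 2 fell. *SPR28* was 9.15-fold higher in YPEG in WT (12.2 ± 1.87 CPM in YPEG and 1.32 ± 0.72 CPM in YPD, SD, n = 4 each), *CDA1* 7.92-fold, *SPS4* 6.16-fold, *REC8* 5.78-fold, *SPR3* 5-fold, *GIP1* 4.81-fold, *SSP1* 3.74-fold and *DIT1* 3.51-fold. These edgeR adjusted p values lay at or below 1.54e-07, and the 2 groups did not overlap for any of these genes. In the other direction *ZIP1* of the synaptonemal complex was lower in YPEG (-1.26), as were *SPS100* (-1.04) and *SPO11* (-0.87).

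In H3L126M, 29 rose and 5 fell in YPEG against YPD (background 33.4%, 33.9% and 67.4% in all), and in H3L126H, 26 rose and 6 fell (36.6%, 31% and 67.5% in all). The size of the response was compared by the interaction of strain and medium over all 24 libraries. It differed from WT in 12 members in H3L126M, 3 more positive and 9 less, against 11.1% and 13.6% of all genes and 24.7% in all. In H3L126H it differed in 13, 2 more positive and 11 less, against 10.1% and 9.27% and 19.4% in all. The 4 members with the largest rise in WT were among those that responded less in both mutants. They were ranked by the WT change that the interaction subtracts, so the ranking itself favors a smaller response in the mutants. The pattern is a description only. *CDA1* rose by 1.77 in H3L126M, 0.94 in H3L126H and 2.99 in WT, *SPR28* by 1.32, 1.85 and 3.19, *REC8* by 0.88, 1.21 and 2.53, *SPS4* by 1.42, 0.94 and 2.62, and *DIT1* by 0.43, 0.50 and 1.81. For each of these 5 the difference from WT passed the test in both mutants. For *SSP1*, with 1.80, 1.26 and 1.90, the difference did not pass the test. *IME1* went the other way, at 0.88 in H3L126M and 0.15 in WT, as did *IME2* at 0.50 and -0.49 and *CDA2* at 2.58 and 0.50. The WT libraries in YPD enter both these differences and the comparisons of strains in YPD.

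**Figure D4:**
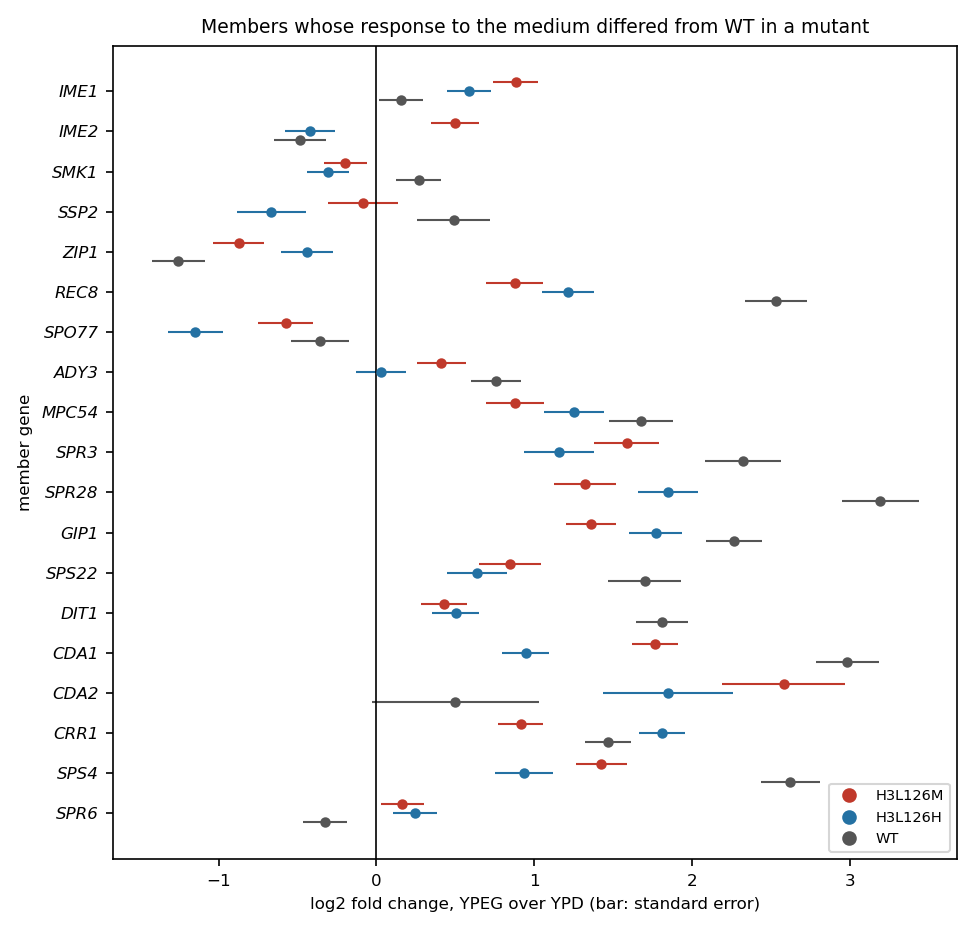
Log2 fold change of YPEG over YPD in H3L126M, H3L126H and WT for the 19 members whose response differed from WT in at least 1 mutant (points: fitted value; bars: standard error). *CDA1*, *SPR28*, *REC8*, *SPS4* and *DIT1* respond less in both mutants than in WT, and *IME1*, *IME2* and *CDA2* more in H3L126M.

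The rest of the program was read from a wider list of 44 meiosis and sporulation genes. Of these, 16 rose and 1 fell of 41 tested in H3L126M in YPD, and 18 rose and 1 fell in H3L126H, where 7.83% and 24.5% of all genes rose. In YPEG 20 rose and none fell of 43 in H3L126M, and 17 rose and 1 fell in H3L126H, where 17.1% and 18.7% of all genes rose. *LDS1*, a lipid droplet protein that helps build the spore wall, had the largest rise in YPD among these, with 3.56 ± 0.99 CPM in H3L126M, 3.23 ± 0.86 CPM in H3L126H and 0.34 ± 0.18 CPM in WT (SD, n = 4 each; log2 3.36 and 3.25). *SMA1* of the prospore membrane rose by 2.43 and 2.33, the RNA-binding protein gene *PES4* by 2.41 and 2.32, *IRC18* by 2.24 and 1.99, and the monopolin gene *MAM1* by 1.97 and 2.26. *NDJ1*, which tethers meiotic telomeres, rose in H3L126M (1.02 in YPD, 1.75 in YPEG) and fell in H3L126H in YPD (-0.37). *MND1*, a recombination factor, fell in H3L126M in YPD (-1.28). The other changes of at least 2-fold in YPD were rises in *LOH1* (1.65 and 1.53), *GMC2* (1.63 and 1.27), *MIP6* (1.46 and 1.19) and *YSW1* (1.17 and 1.11, the H3L126H value being 0.68 with chromosome medians removed) in both mutants, *GAS4* in H3L126M (1.43), and *SPO19* (1.83) and *SHC1* (1.67) in H3L126H. In YPEG *LDS1* rose by 2.03 and 2.18, *PFS1* (1.27) and *GAS2* (1.14) rose in H3L126M, and *SPO19* (1.74) and *SHC1* (1.12) rose in H3L126H. With chromosome medians removed the H3L126H values in YPD were 1.91 for *SMA1*, 2.05 for *MAM1*, 1.43 for *SPO19* and 1.46 for *SHC1*. In YPEG they were 1.37 for *SPO19* and 0.92 for *SHC1*, and all stayed called. *LDS1*, *SMA1*, *MAM1*, *GMC2* and *SPO19* in YPD, and *PFS1* and *SPO19* in YPEG, passed the count filter only through mutant libraries. Those calls, counted among the rises above, are no independent support for a rise.

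Of 11 repressors of meiotic genes, 1 rose and none fell in H3L126M in YPD (*SOK2*, 0.25), and 3 fell in H3L126H: *RME1*, the haploid repressor of *IME1* (-0.51), *UME6* (-0.36) and the deacetylase gene *RPD3* (-0.24). In these comparisons 7.83% of all genes rose in H3L126M and 20.1% fell in H3L126H, so that 3 of 11 is near the background. The H3L126H values of *RME1* and *UME6* were -0.34 and -0.20 with chromosome medians removed, both still called. In YPEG *XBP1*, a stress-induced repressor, rose by 1.54 in H3L126M and 0.67 in H3L126H, while *UME6* (-0.49), *SUM1* (-0.40), *RME1* (-0.30) and *ISW2* (-0.28) fell in H3L126H, where 17.7% of all genes fell. None of these 4 was called with chromosome medians removed (-0.34, -0.25, -0.16 and -0.15). *UME1*, on chromosome XVI, was called lower in H3L126H only with the medians removed, at -0.23 in YPD and -0.32 in YPEG. Before removal it had 0.18 and 0.06. *SIN3* was called higher in H3L126H in YPD only with the medians removed (0.24, and 0.13 before). In H3L126M in YPEG *RME1* rose by 0.24 and *ISW2* fell (-0.32). *SUM1*, the repressor at MSE sites, averaged 179 ± 10.7 CPM in H3L126M, 166 ± 6.35 CPM in H3L126H and 180 ± 16.6 CPM in WT in YPD (SD, n = 4 each), and neither difference passed the test. Of 8 activators of meiotic entry, *KAR4* rose in all 4 comparisons (0.50 to 0.52). It lies on chromosome III, and with chromosome medians removed its H3L126H values were 0.30 in YPD, still called, and 0.25 in YPEG, no longer called. *SLZ1*, a subunit of the mRNA methylation complex, rose in H3L126M in YPD (0.80) and YPEG (1.45) and in H3L126H in YPEG (0.95). *RIM11* (-0.35), *IME4* (-0.64) and *MCK1* (-0.25) fell in H3L126H in YPD, and *RIM11* was no longer called with chromosome medians removed (-0.36). *MUM2*, on chromosome II, was called at 0.28 there and had -0.15 with chromosome medians removed, so no direction is given for it. *RIM11* (0.74) and *IME4* (0.31) rose in H3L126M in YPEG.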

How the data were processed

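Reads from 24 stranded poly(A) libraries (3 strains, 2 media, 4 replicate experiments each) were aligned by the authors to sacCer3 (R64-1-1) with HISAT2 and counted over 6692 ORFs with featureCounts. The authors deposited these counts per ORF, which entered every fit, and a signal of DESeq2-normalized counts, which served as an alternative for the sum only. Strains were compared in each medium over 12 libraries, and media and interactions over 24, with edgeR 4.0.16 (quasi-likelihood, TMM, minimum count 10) in R 4.3.3. P values were adjusted over all genes tested (Benjamini-Hochberg), and genes were called at an adjusted p below 0.05. CPM are counts scaled to the TMM-corrected library size, which ranged from 8570789 to 15577958 counts before correction. P values measure the spread between replicate experiments. Alternatives were DESeq2 1.42.0 (Wald test), its size factors, no filter, a replicate block, only the 8 libraries compared, all 24 libraries (added after seeing the data), chromosome medians removed from H3L126H (for the lists beside the members, added after seeing the data), total counts, the sum without its largest member and leaving out each library. The members and lists were chosen with earlier results of these data known. Genes were given in full by rule: the 6 called members with the largest change in each mutant and medium, the 8 for YPEG against YPD in WT, the 5 largest shares of the sum, called repressors and activators, and genes of the wider list called at least 2-fold; the others stand in the account of their role class and were named after their values were seen. The steps were tested on simulated counts. Changes were placed only in genes of mean count above the filter minimum. The simulated spread was fixed for all genes, with no shift of whole chromosomes. The simulation therefore does not cover members near the limit of counting.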

Additional observations from a re-analysis of the deposited data

Results flagged for a closer look

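Among 150 groups of 4 libraries, 13 had a library far from the other 3 (chance gives about 1 in 20). In WT in YPEG these were replicate 4 for the summed regulators (181 CPM), replicate 1 for *SPR28* (15 CPM) and for *SPS4* (14.8 CPM), replicate 2 for *MEI5* (0.22 CPM) and for *CDA2* (1.79 CPM), and replicate 3 for *SPS100* (1.2 CPM). In WT in YPD they were replicate 4 for *SPS4* (3.69 CPM) and replicate 1 for *SPS22* (2.42 CPM). In the mutants they were H3L126M in YPEG replicate 1 for *CDA1* (33.2 CPM), H3L126M in YPD replicate 2 for *IME2* (16.3 CPM) and replicate 3 for *SPS100* (9.17 CPM), and H3L126H in YPEG replicate 4 for *SPS4* (10.003 CPM) and replicate 3 for *SPR3* (8.52 CPM).

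The response to YPEG against YPD differed from that of WT, by the interaction of strain and medium, in 12 members in H3L126M. On the log2 scale the differences, mutant minus WT, were 2.08 for *CDA2*, 0.98 for *IME2*, 0.73 for *IME1*, -0.55 for *CRR1*, -0.80 for *MPC54*, -0.86 for *SPS22*, -0.91 for *GIP1*, -1.20 for *SPS4*, -1.22 for *CDA1*, -1.38 for *DIT1*, -1.66 for *REC8* and -1.87 for *SPR28*. In H3L126H the 13 differences were 0.81 for *ZIP1*, 0.57 for *SPR6*, -0.57 for *SMK1*, -0.73 for *ADY3*, -0.79 for *SPO77*, -1.07 for *SPS22*, -1.15 for *SSP2*, -1.16 for *SPR3*, -1.31 for *DIT1*, -1.32 for *REC8*, -1.35 for *SPR28*, -1.69 for *SPS4* and -2.04 for *CDA1*.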

How the results depend on the processing

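Of 3177 recomputed values for 225 called member results, 2887 kept direction and call, 290 kept direction only and none reversed. DESeq2 kept all 225. Counts of members called stayed within 1.5 times under every alternative except H3L126M against H3L126H in YPD, which ranged from 7 to 10 with each library left out (7 without H3L126H YPD replicate 4, 11 with all). With only the 8 libraries compared, H3L126M in YPD had 14 members and 526 genes in all called (21 and 871 with all 12). With chromosome medians removed from H3L126H, 1237 genes in all differed between H3L126M and H3L126H in YPD (2132 before) and 1397 between H3L126H and WT in YPEG (2192 before). Scaled to total counts, the log2 ratio of the sum was 0.62 for H3L126M and 0.46 for H3L126H against WT in YPD, 0.32 for H3L126M against WT and 0.052 for H3L126M against H3L126H in YPEG, and 1.10, 0.81 and 0.92 for YPEG against YPD in WT, H3L126M and H3L126H. Without the member with the most counts it was 0.68 in WT and 0.63 in H3L126M for YPEG against YPD. Replicate numbers were not treated as pairs in the main fits. Of 12 same-number correlations of deviations, 0 lay over 0.1 in YPD and 5 of 12 in YPEG. Median correlations for same and other numbers were -0.04 and 0.01 in YPD and 0.03 and -0.004 in YPEG. With the replicate block, 18 and 20 members were called in H3L126M and H3L126H in YPD, and 23 and 17 in YPEG. *MEI5*, *OSW1* and *CDA2* had under 10 counts in 7 or 8 of the 8 WT libraries, and at that depth small changes were not detectable. Where tested, they passed the count filter only through the mutant libraries, which favors calls of a rise. The same held in YPD for *CDA1*, *SPR28* and *DIT2*.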

Other observations

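Mating genes also differed between the strains. All 4 alpha-specific genes tested rose in H3L126M in YPD and 3 rose in H3L126H, where 7.83% and 24.5% of all genes rose. In YPEG 3 of the 4 rose in H3L126M and 2 in H3L126H, where 17.1% and 18.7% of all genes rose. Of the 7 a-specific genes, 4 rose in H3L126M in YPD and 6 in YPEG, against 7.83% and 17.1% of all genes. The rises in H3L126M were thus not limited to genes of the opposite mating type. In H3L126H none of the 7 rose and 3 fell in YPD, where 20.1% of all genes fell. In YPEG 1 rose and 1 fell in H3L126H, near the background of 18.7% and 17.7%. With chromosome medians removed, 2 of the 7 fell in H3L126H in YPD, and 2 rose and 1 fell in YPEG. *STE3*, the receptor for a-factor, averaged 15.9 ± 1.93 CPM in H3L126M, 10.2 ± 0.97 CPM in H3L126H and 4.42 ± 0.55 CPM in WT in YPD (SD, n = 4 each; log2 1.87 and 1.25, edgeR adjusted p = 2.01e-06 and 3.32e-05). *SAG1*, the alpha-agglutinin, rose by 0.55 and 0.82 in YPD and 0.69 and 0.40 in YPEG. In YPEG *MF(ALPHA)1*, an alpha-factor gene, had 4.88, 4.82, 2.83 and 2.94 CPM in H3L126M, 14.7, 23.6, 21.6 and 22.1 CPM in H3L126H, and 1.79, 1.68, 3.05 and 4.63 CPM in WT, so that H3L126H stood apart from both other strains. Of the 7 haploid-specific genes, none rose in YPD. There 1 fell in H3L126M and 5 fell in H3L126H, where 6.74% and 20.1% of all genes fell. In YPEG 1 rose in H3L126M, where 17.1% of all genes rose, and 4 fell in H3L126H, where 17.7% fell. With chromosome medians removed, 4 fell in H3L126H in YPD, and 3 fell and 1 rose in YPEG. The shares of all genes by direction are not given for that setting.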
